A study of Mus musculus with 13 samples.

Results

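T cells, macrophages, sinusoidal endothelium, bile duct cells and type 1 dendritic cells of the liver were followed in mice that had been taken off the DDC diet. The comparison set 1 library, named STOP, against 3 libraries of mice still on the diet, with 1 library of mice that never received it as reference. Members were barcodes with at least 1500 unique molecular identifiers (UMIs), chosen by raw UMIs of 1 gene each. At least 2 UMIs of Cd3e marked T cells, at least 5 of C1qa macrophages, at least 2 of Stab2 liver sinusoidal endothelial cells (LSECs), at least 2 of Epcam biliary epithelial cells (BECs) and at least 2 of Xcr1 type 1 conventional dendritic cells (cDC1s). The rule was met by 17024 of the 32842 such barcodes in the 5 libraries, and the 13 libraries of the whole series held 95563. Type 2 dendritic cells were left aside.

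All samples were droplet single-cell RNA-seq libraries of C57BL/6J mouse liver made with the same isolation, named protocol B. All mice were male. DDC, which stands for 3,5-diethoxycarbonyl-1,4-dihydrocollidine, was mixed into the chow at 0.1% and fed for 9, 19 or 25 days (D9, D19 and D25) or not at all (D0). STOP mice received DDC for 18 days and then recovered for 7 days. The labels were not uniform on the start point, since one label of STOP reads D19 and one label of D19 reads D18. D19 was therefore the nearest library to the start of recovery, and D25 the nearest in total time. No genotype other than C57BL/6J and no agent other than DDC entered these 5 libraries, and the number of animals behind a library is not given in the sources used here. In protocol B, live cells of a stellate cell preparation, Cd45+ Itgax+ Cd64- cells, Epcam+ cells and Cd3e+ Lyve-1- cells were sorted and mixed at equal ratios. LSECs and macrophages had no gate of their own in this mix, and the Cd64- gate selects against macrophages, so shares of lineages among all barcodes were set by the sort and were not compared.

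DDC blocks heme synthesis and is used as a model of cholangitis, in which porphyrin plugs injure the bile ducts, BECs proliferate in a ductular reaction, and myeloid and T cells gather around the portal tract. Kupffer cells are the resident macrophages of the sinusoid, whereas monocyte-derived macrophages that take up lipid and debris carry a Trem2 and Gpnmb program. LSECs line the sinusoid and clear circulating waste, and cDC1s take up dead cells and present antigen to CD8+ T cells.

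The 5 libraries held between 37535876 and 81301376 UMIs. The members of each lineage that met no other rule were summed per library: 2044 T cells, 247 macrophages, 616 LSECs, 366 BECs and 857 cDC1s at STOP. The 3 DDC libraries held 1289 to 1709, 254 to 694, 189 to 406, 269 to 461 and 139 to 334 of them. Levels are given as CPM, the UMIs of a gene per 1000000 summed UMIs of the lineage in a library. STOP held more mixed barcodes than any other library. Of barcodes that met a rule, 19.1% (exact 95% binomial interval 18 to 20.2) met a further one at STOP, against 10.4%, 10.5% and 11.2% at D9, D19 and D25 and 4.16% at D0. These were left out of the sums, which took 46.9% of the macrophages and 48.4% of the LSECs of STOP, against 21.2 to 28.6% and 28.95 to 32.98% on DDC. Between 2 and 22 cell barcodes were shared by any pair of libraries.

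The lineage labels were set against marker genes. The T cell, macrophage, LSEC and cDC1 labels held in all 5 libraries, with summed markers of 6487 CPM in T cells, 12557 in macrophages, 17920.1 in LSECs and 2856 in cDC1s at STOP. The BEC label held at D9, D19, D25 and STOP, where Krt19 was at 1135 to 1621 CPM on DDC and 1354 CPM at STOP. At D0 it did not. The 104 Epcam barcodes of D0 had Krt19 at 10.1 CPM and Sox9 at 0 UMIs, where 3 UMIs stand for 5.03 CPM, but held 1596 CPM of type 2 dendritic cell markers. D0 therefore gave no BEC reference, and no D0 value is given for BECs. Barcodes at the threshold, with exactly 2 Cd3e UMIs, numbered 535 at STOP, and 535 more held 1 Cd3e UMI and stayed outside. For C1qa, 37 barcodes of STOP held exactly 5 UMIs and 40 held 4.

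Few genes of STOP were called against the 3 DDC libraries. A gene was called higher at STOP where its CPM was at least 2-fold above the highest of the 3 DDC libraries with exact 95% Poisson intervals that did not overlap, and lower in the mirrored case. STOP is 1 library, so no test was made and no p-value is given. The intervals cover counting error only, and the range of D9, D19 and D25 is the sole measure of spread between libraries. Genes at 50 CPM or more in STOP or a DDC library were compared. In T cells 52 of 3462 genes were called higher (1.5%) and 9 lower (0.26%). In macrophages 81 of 3273 were higher (2.47%) and 19 lower (0.581%). In LSECs 26 of 4221 were higher (0.616%) and 15 lower (0.355%). In BECs 70 of 4106 were higher (1.7%) and 28 lower (0.682%). In cDC1s 60 of 3127 were higher (1.92%) and 11 lower (0.352%). Without the 2-fold limit far more genes lay outside the DDC range. Of all genes compared, 42.9% stood above all 3 DDC libraries in T cells, 41.7% in macrophages, 36.3% in LSECs, 32.4% in BECs and 22.3% in cDC1s, and 15.7%, 19.2%, 13.01%, 19.995% and 21.2% stood below them. Counts of listed genes above or below the range are read against these shares. Each call was recomputed under 12 alternatives, or 11 in cDC1s. Lifting the CPM filter or leaving out 1 DDC library cannot remove a higher call, so 8 of the 12, or 7 of the 11, were able to. Higher calls outnumbered lower ones in every lineage on this scale. With trimmed-mean (TMM) scaling the split of higher to lower calls was 32 to 13 in T cells, 50 to 30 in macrophages, 22 to 22 in LSECs and 55 to 40 in BECs. In cDC1s it was 55 to 10. The median gene compared stood at 0.10 on the log2 scale above the DDC mean in T cells and at 0.12 in LSECs, and within 0.1 of it in the other lineages.

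**Figure D1:**
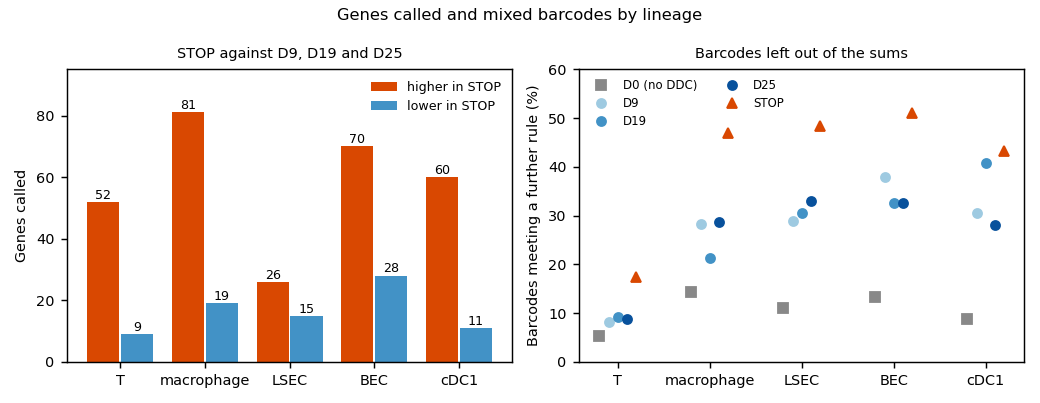
Left, number of genes called higher (orange bars) or lower (blue bars) at STOP than in all 3 DDC libraries, by lineage, from 81 higher calls in macrophages to 9 lower calls in T cells. Right, percent of the barcodes of each lineage that met a further lineage rule and were left out, 1 point per library, with STOP the highest point in every lineage.

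In macrophages, Kupffer cell genes stood above the DDC range and genes of lipid-associated macrophages below it, on the side of D0. Of 12 Kupffer cell genes compared, 5 were called higher and none lower, and 11 stood above all 3 DDC libraries, where 2.47% of all genes compared were called higher and 41.7% stood above. Their median log2 ratio to the DDC mean was 1.24, against 0.08 over all genes compared. Clec4f, a lectin that defines Kupffer cells, was at 346, 442 and 161 CPM at D9, D19 and D25, 339 at D0 and 983 at STOP (946 to 1022). STOP was the highest of the 5 libraries, and D25 the lowest. Cd5l, a secreted survival factor of resident macrophages, stood at 765, 930.1 and 846 CPM on DDC and 1956 at STOP, with 288 at D0. Nr1h3, the liver X receptor of the Kupffer cell program, was at 62.7, 69.8 and 79.4 CPM on DDC, 251 at STOP and 109 at D0. The adhesion gene Cdh5 (152 CPM, DDC 46.4 to 63.4) and the complement gene C6 (115 CPM, DDC 26.5 to 54.4) completed the higher calls. Cdh5 is also a marker of LSECs, and summed LSEC markers in macrophages were 969.8 CPM at STOP, 579 to 711 on DDC and 1141 at D0, with 6 of 7 above all 3 DDC libraries and 1 called. Their part in the result was not tested. Vsig4, Marco and Timd4 were above the DDC range at STOP but by less than 2-fold, at 616, 678 and 85.3 CPM. The calls of Clec4f, Cd5l, Nr1h3 and C6 were lost when barcodes meeting 2 rules were kept, and that of Clec4f also with the rule set on thinned barcodes. Cd5l lost its call under 4 alternatives and C6 under 5, TMM and median-of-ratios scaling among them, and Cdh5 with thinned sums.

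Lipid-associated macrophage genes went the other way. All 14 genes of the list were compared, 12 stood below all 3 DDC libraries and none above, with a median log2 ratio of -0.74. Of all genes compared, 0.581% were called lower and 19.2% stood below. Gpnmb, a lysosomal glycoprotein, was at 733, 1718 and 1215 CPM on DDC, 298 at STOP (277 to 319.8) and 19.6 at D0. Atp6v0d2, a subunit of the lysosomal proton pump, was at 98.2, 216 and 196 CPM on DDC, 29.6 at STOP and 0 UMIs at D0, where 3 UMIs stand for 2.26 CPM. Both were called lower, and both remained well above D0. Trem2, the lipid receptor of the program, was at 908, 1128 and 1279.9 CPM on DDC and 509 at STOP, below the DDC range by less than 2-fold. The lipase Lpl (819 CPM, DDC 1320.4 to 1632), the lectin Lgals3 (2427, DDC 3251 to 4362), the tetraspanin Cd63 (767, DDC 1386 to 1938) and the elastase Mmp12 (596, DDC 832 to 1159) were likewise below it without a call. Spp1, osteopontin, was still at 1509 CPM against 12.8 at D0, close under the lowest DDC value of 1578. Among genes at 100 CPM or more, the largest lower calls outside the list were Cirbp, the ubiquitin ligase gene Fbxo32 (23.8 CPM, DDC 108 to 129), the vesicle gene Syngr1 (52.2, DDC 152 to 259) and the protease gene Adam8 (41.1, DDC 111 to 139). The call of Adam8 was lost when barcodes meeting 2 rules were kept and with the rule set on thinned barcodes. Itgax, which encodes the Cd11c used in a gate of the sort, was also called lower, at 81.8 CPM against 192 to 235.

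**Figure D2:**
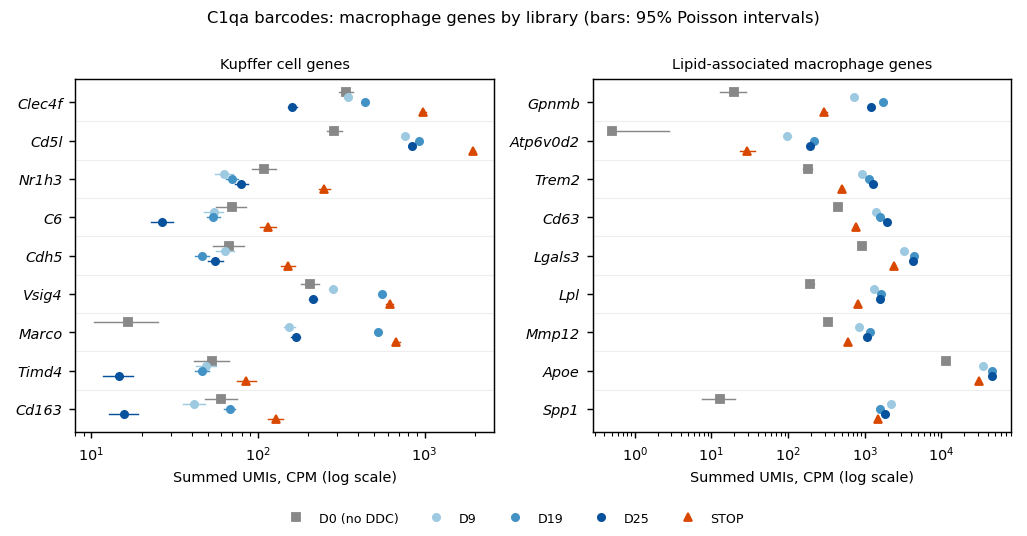
Summed levels in C1qa barcodes (CPM, log axis) of 9 Kupffer cell genes (left) and 9 lipid-associated macrophage genes (right), 1 symbol per library with its exact 95% Poisson interval, with levels under 0.5 CPM drawn at 0.5. STOP (orange triangles) lies right of the DDC circles for the Kupffer cell genes and left of them, on the side of D0 (grey squares), for the lipid-associated genes.

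The share of Clec4f barcodes among macrophages was larger at STOP. The sort had no macrophage gate and held Itgax+ and Cd64- gates, so the share describes only macrophages that passed it. The same limit holds for the Kupffer cell and lipid-associated genes above, and the part of the sort was not tested. After thinning each barcode to 1500 UMIs, which leaves out no member, Clec4f was seen in 10.2, 12.97 and 9.30% of macrophages at D9, D19 and D25 and in 28.3% at STOP (22.8 to 34.4), with 10.9% at D0. In thinned T cells, which should lack it, it was seen in 0.147% at STOP. Without thinning it was seen in 33.6% of macrophages at STOP and 12.7 to 15.6% on DDC. Median depth was 9880.0 UMIs in macrophages and 3723 in T cells of STOP. Gpnmb was seen in 37.4, 47.7 and 39.5% of thinned macrophages on DDC and in 17.8% at STOP (13.3 to 23.2). Macrophages were then divided by Clec4f, with 83 barcodes of STOP carrying a UMI and 164 carrying none. Gpnmb was below the DDC range in both classes, at 176 CPM against 356 to 866 where Clec4f was seen and 348 against 803 to 1898 where it was not. Trem2 followed, at 318 CPM against 664 to 1012 and 588 against 954 to 1325. Nr1h3 was above the DDC range in both, at 499 CPM against 153 to 182 and 148 against 43.4 to 68.6. Spp1 was found chiefly in the barcodes without Clec4f, where STOP at 2100.1 CPM lay inside the DDC range of 1893 to 2385. Timd4 in barcodes with Clec4f was at 268 CPM at STOP, inside the DDC range of 133 to 304, and at 506 at D0.

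Lists of monocyte-derived, inflammatory and repair genes gave 4 higher calls in macrophages, and their medians lay close to that of all genes compared. Ly6c2 and Plac8, both carried by inflammatory monocytes, were called higher among 8 monocyte-derived genes compared, of which 3 stood above and 2 below the DDC range, with a median log2 ratio of -0.02. The medians were 0.08 for the inflammatory and 0.01 for the repair list, each with 2 genes below the DDC range, against 0.08 over all genes compared. Plac8 was at 126, 139.9 and 213 CPM on DDC and 689.8 at STOP, with 247 at D0. Ccr2, the receptor that brings monocytes out of the marrow, was above the DDC range at 479 CPM, without a call. Summed monocyte markers in macrophages were 908 CPM at STOP, 241 to 321 on DDC and 361 at D0. Of these markers 3 of 4 stood above all 3 DDC libraries and 3 were called higher, as were 2.47% of all genes compared. Ccl7, a monocyte-attracting chemokine, was at 21.2, 27.2 and 17.7 CPM on DDC, 313 at STOP and 190.0 at D0, the only call among 9 inflammatory genes. It was higher in barcodes with Clec4f (210.3 CPM, DDC 8.95 to 32.1) and without it (355, DDC 17.3 to 26.2). Arg1, the arginase of alternatively activated macrophages, was the only call among 9 repair genes, at 57.2, 37.1 and 40.4 CPM on DDC and 142 at STOP, with 28.6% of its STOP UMIs in 1 barcode. The call of Ly6c2 was lost under 5 alternatives, both other scalings among them, and that of Arg1 when barcodes meeting 2 rules were kept and with the rule set on thinned barcodes. Those of Plac8 and Ccl7 were lost under none of the 8 alternatives able to remove them. The largest ratio in macrophages was that of Mgp, a matrix protein gene, at 520.4 CPM against 3.66 to 12.5, but 88.2% of its UMIs came from 1 barcode and the level without that barcode was 61.5 CPM. Ly6a, an interferon-inducible surface gene, was at 338 CPM against 16.2 to 37.9 on DDC and 362 at D0. Heme and iron genes gave no call in 8 compared, and Hmox1, heme oxygenase, was at 939 CPM against 961 to 1485 on DDC.

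In T cells 3 of 10 effector, 2 of 6 residency and checkpoint and 4 of 8 cell cycle genes were called higher at STOP, and no gene of the naive program was called. Of all genes compared in T cells, 1.5% were called higher and 42.9% stood above all 3 DDC libraries. Among 10 cytotoxic and type 1 genes compared, 3 were called higher, 9 stood above all 3 DDC libraries and none below, with a median log2 ratio of 1.26 against 0.10 over all genes compared. The granzyme gene Gzma was at 342, 522 and 352 CPM on DDC, 1245 at STOP (1223 to 1267) and 308 at D0. Gzmk, the granzyme of a memory-like CD8+ state, was at 7.24, 71.8 and 29.6 CPM on DDC, 165 at STOP and 28.7 at D0. Both were highest at STOP among the 5 libraries. The chemokine gene Ccl3 was called at 257 CPM against 36.3 to 121. Ccl5 (15267 CPM, DDC 3275 to 8405), Gzmb (993, DDC 399 to 527) and the perforin gene Prf1 (113, DDC 46.2 to 63.02) stood above the DDC range by less than 2-fold. Markers of other cells moved with these genes. Summed NK cell markers in T cells were 209 CPM at STOP, 84.3 to 122 on DDC and 182 at D0, with 3 of 4 above all 3 DDC libraries and none called. Summed LSEC markers were 449 CPM at STOP and 93.5 to 128 on DDC, with 7 of 7 above and 2 called. Their part in the result was not tested. The calls of Gzma, Gzmk and Ccl3 were lost when barcodes meeting 2 rules were kept, and that of Ccl3 also with TMM scaling.

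Of 6 residency and checkpoint genes compared, 2 were called higher. Pdcd1, which encodes the inhibitory receptor PD-1, was at 25.9, 56.1 and 38.1 CPM on DDC, 148 at STOP (141 to 156) and 8.12 at D0. Havcr2, which encodes TIM-3, was at 7.13, 26.3 and 5.52 CPM on DDC and 59.8 at STOP. Both calls held under the 8 alternatives able to remove them. Tox, a factor of chronically stimulated T cells, was above the DDC range at 166 CPM (51.3 to 105). None of the naive and recirculating genes was called, with 6 of 8 below all 3 DDC libraries and a median log2 ratio of -0.51. Of all genes compared in T cells, 15.7% stood below. S1pr1, needed to leave tissue, was at 314, 169 and 145 CPM on DDC and 123 at STOP. The transcription factor gene Lef1 stood at 202 CPM against 248 to 348 and Tcf7 at 246 against 267 to 449. D0 did not mark the high end of these genes. Lef1 was at 174 CPM and Tcf7 at 202 at D0, both below the DDC range, whereas Ccr7 at 411 was above it.

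**Figure D3:**
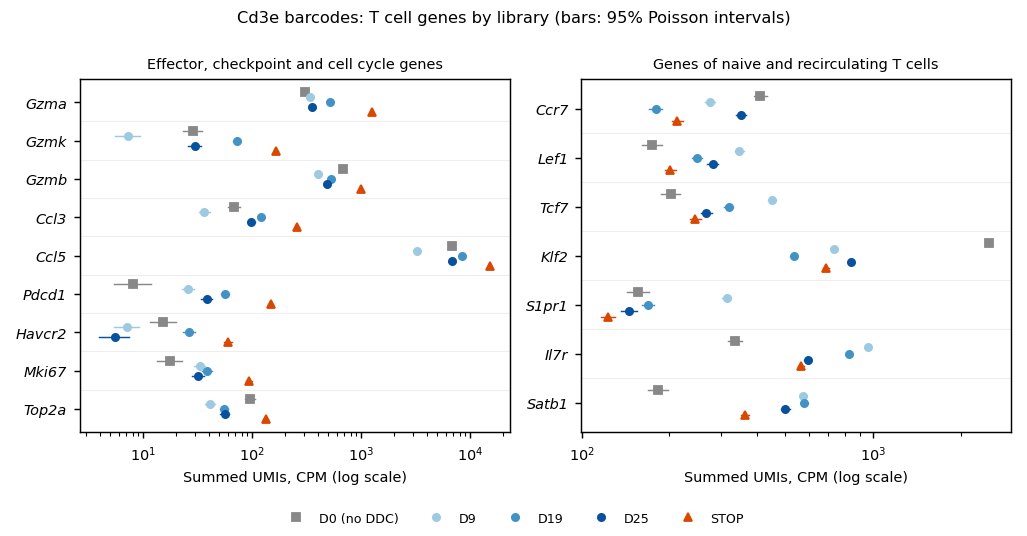
Summed levels in Cd3e barcodes (CPM, log axis) of 9 effector, checkpoint and cell cycle genes (left) and 7 genes of naive and recirculating T cells (right), 1 symbol per library with its exact 95% Poisson interval. STOP (orange triangles) lies right of the 3 DDC circles for all 9 genes on the left and left of them for 5 of the 7 on the right.

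All 8 cell cycle genes compared in T cells stood above the 3 DDC libraries at STOP and 4 were called. Of all genes compared in T cells, 42.9% stood above and 1.5% were called higher. Mki67, present in cycling cells, was at 33.01, 38.4 and 31.9 CPM on DDC, 93.6 at STOP and 17.7 at D0. Top2a was at 40.9, 55.5 and 55.9 CPM on DDC, 133 at STOP and 95.97 at D0. For the other 2 called genes D0 stood above STOP. Stmn1, which destabilises microtubules, was at 34.2, 45.9 and 80.5 CPM on DDC, 165 at STOP and 192 at D0, and Birc5, survivin, at 12.6, 14.6 and 20.1, 50.1 and 62.6. After thinning, Mki67 was seen in 2.17, 2.57 and 1.83% of T cells on DDC and 4.70% at STOP (3.82 to 5.71), without thinning in 5.34 to 7.14% and 9.78%. The calls of all 4 were lost when the rule was set on thinned barcodes. Top2a lost its call under 3 alternatives in all, Stmn1 under 6 and Birc5 under 7, TMM scaling among these for the last 2.

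T cells were divided by Cd8a, Cd8b1 and Cd4. Those with a UMI of either and none of Cd4 made up 52.3% of T cells at STOP (50.1 to 54.4) and 45.3 to 56.3% on DDC without thinning, at a median depth of 3723 UMIs at STOP and 4601 to 5603 on DDC. In them Gzmk was at 11.3, 48.7 and 40.9 CPM on DDC and 277 at STOP, Pdcd1 at 17.6, 26.7 and 22.3 and 220.2, and Gzma at 372, 614 and 411 and 1968. Tox was at 48.1 to 81.8 CPM on DDC and 242 at STOP, and Havcr2 at 3.94 to 7.40 and 94.7. Ifng, the type 1 cytokine interferon gamma, was at 23.4, 99.6 and 124 CPM on DDC and 159 at STOP. Among T cells with Cd4 and neither Cd8 gene, STOP lay inside the DDC range for Gzmk (39.1 CPM, 1.88 to 212), Pdcd1 (62.3, 53.4 to 143) and Gzma (50.7, 5.15 to 138). Ifng in them was above it, at 35.6, 167 and 166 CPM on DDC and 421 at STOP. These are 302 barcodes at STOP, and the difference between the 2 classes was not tested. In the whole T cell lineage Gzmk was seen in 1.01, 8.66 and 4.42% of thinned barcodes on DDC and 19.3% at STOP (17.6 to 21.1), with 0.233% in cDC1s of STOP at a median of 10472 UMIs. Pdcd1 was seen in 3.03, 7.90 and 4.65% and 16.5% (14.9 to 18.2), with 1.05% in cDC1s. At equal depth Cd8a was seen in more T cells of STOP, 32.5% (30.5 to 34.6) against 21.3, 20.8 and 25.2% on DDC, and Cd8b1 in 35.7% (33.6 to 37.8) against 32.1, 28.6 and 35.4%.

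No gene of the type 17 list (7 compared) or the regulatory list (4 compared) was called. Il17a, the cytokine that gives type 17 cells their name, was at 10.7, 31.5 and 61.3 CPM on DDC and 27.2 at STOP, inside the DDC range. It was seen in 1.01, 1.11 and 2.06% of thinned T cells on DDC and in 0.587% at STOP (0.304 to 1.02). That interval overlapped those of D9 and D19 and not that of D25 (1.36 to 2.98). Without thinning the shares were 1.47 to 2.59% and 0.832%. Ctla4 was above the DDC range at 169 CPM against 83.4 to 132, without a call. By the naming rule, the 5 largest higher calls in T cells at 100 CPM or more were the hepatocyte genes Fabp1, Mup20, Apoa2, Apoc3 and Apoc1, and they are given with the genes called in several lineages.

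In BECs 3 of 12 inflammatory mediators, 2 of 2 metallothioneins and 2 of 10 ductular reaction genes were called lower at STOP, and no ductal identity gene was called. Of all genes compared in BECs, 0.682% were called lower and 19.995% stood below all 3 DDC libraries. Of 12 inflammatory mediators compared, 3 were called lower, 6 stood below all 3 DDC libraries and none above, with a median log2 ratio of -0.71 against 0.05 over all genes compared. Cxcl5, a chemokine for neutrophils, was at 663, 1507 and 2114 CPM at D9, D19 and D25 and at 153 at STOP (141 to 166). Lcn2, the iron-siderophore binding lipocalin of stressed epithelium, was at 3629.5, 2972 and 3835 CPM on DDC and 1304 at STOP. Vcam1, an adhesion receptor for leukocytes, was at 646, 686 and 589 CPM on DDC and 234 at STOP. These 3 calls held under all 12 alternatives, though lifting the CPM filter or leaving out 1 DDC library could not remove them. Ccl20, the ligand of Ccr6, was below the DDC range at 16.6 CPM (21.4 to 62.9), without a call, and Cxcl1 lay inside it at 282 (269 to 1072).

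The metallothionein genes Mt1 and Mt2, which buffer zinc and copper, were both called lower. Mt1 was at 2184, 1972 and 2056 CPM on DDC and 729 at STOP, and Mt2 at 509, 449 and 404 and 83.7. In LSECs Mt2 was at 262 CPM at STOP against 329 to 545 and Mt1 was inside the DDC range, and neither was called there. Of 10 ductular reaction genes, 2 were called lower and 6 stood below the DDC range, against 0.682% and 19.995% of all genes compared. Mmp7, matrilysin, was at 505, 678 and 346 CPM on DDC and 129 at STOP, and Itgb6, the integrin chain that activates latent TGF-beta, at 127, 140.0 and 101 and 44.4. Spp1, the most abundant gene of that list, was not called, at 18333, 17419.8 and 21400.5 CPM on DDC and 21332 at STOP. Keratin and identity genes gave no call in 10 compared. Krt19 was at 1135, 1200.1 and 1621 CPM on DDC and 1354 at STOP, and Sox9, the ductal transcription factor, at 404, 500.3 and 455 and 511.

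Of cell cycle genes in BECs, Mki67 and Cenpf were called lower among 7 compared, and 5 stood below all 3 DDC libraries. Of all genes compared, 0.682% were called lower and 19.995% stood below. Mki67 was at 70.2, 62.3 and 41.9 CPM on DDC and 19.1 at STOP. It was seen in 4.46, 4.56 and 3.85% of thinned BECs on DDC and 1.64% at STOP (0.604 to 3.53), unthinned 12.4 to 22.3% and 9.02%. The thinned interval of STOP overlapped those of all 3 DDC libraries, with D25 as an example (2.26 to 6.09). Both calls were lost under 4 alternatives. These kept barcodes meeting 2 rules, set the rule on thinned barcodes, summed thinned barcodes, or left out barcodes with other-type transcripts. The last dropped the deepest 5% of a library and barcodes with at least 2 UMIs of Cd79a, 5 of S100a8 or 20 of Alb. These genes were taken to mark B cells, neutrophils and hepatocytes. The call of Cenpf was lost also without D19.

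The largest higher ratios in BECs at 100 CPM or more were those of Ighg2b, Pla2g4c, Fabp1, Chil4 and Dnase1l3. Chil4, a chitinase-like protein, was at 7.15, 66.03 and 226 CPM on DDC and 5766 at STOP (5691 to 5842). It came from 58 of the 366 barcodes, with 26.2% of the UMIs in 1 of them and 4256 CPM without it. Pla2g4c, a phospholipase, was at 1.10, 0.863 and 0.707 CPM on DDC and 128 at STOP, from 26 barcodes. Tff2, a trefoil peptide of mucous epithelium, was at 258, 152 and 226 CPM on DDC and 552 at STOP, and Dmbt1, a mucosal scavenger protein of the same large duct list, was at 194, 173 and 159.7 and 59.5. The call of Dmbt1 was lost with the rule set on thinned barcodes and when barcodes with other-type transcripts were left out. The call of Tff2 was lost under 4 alternatives, both other scalings among them, and its ratio turned when barcodes meeting 2 rules were kept. Car2, the carbonic anhydrase of bicarbonate secretion, was above the DDC range at 759 CPM (363 to 484), as were 5 of 6 secretion and transport genes, without a call. Ccl17, a chemokine made chiefly by dendritic cells, was called lower at 17.6 CPM against 86.2 to 107. At D9, D19 and D25 42.6%, 59.4% and 36.1% of its UMIs were in 1 barcode each, and at STOP 46.4%. Without these barcodes it was at 49.5, 37.7 and 68.04 CPM on DDC and 9.45 at STOP, and its call was lost with the rule set on thinned barcodes. Among barcodes with Krt19, Krt7 or Sox9, 84.2% of BECs at STOP and 72.5 to 84.8% on DDC, Cxcl5 was at 169.9 CPM against 772 to 2326, Mt2 at 91.2 against 443 to 588 and Chil4 at 6394 against 8.34 to 249.

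**Figure D4:**
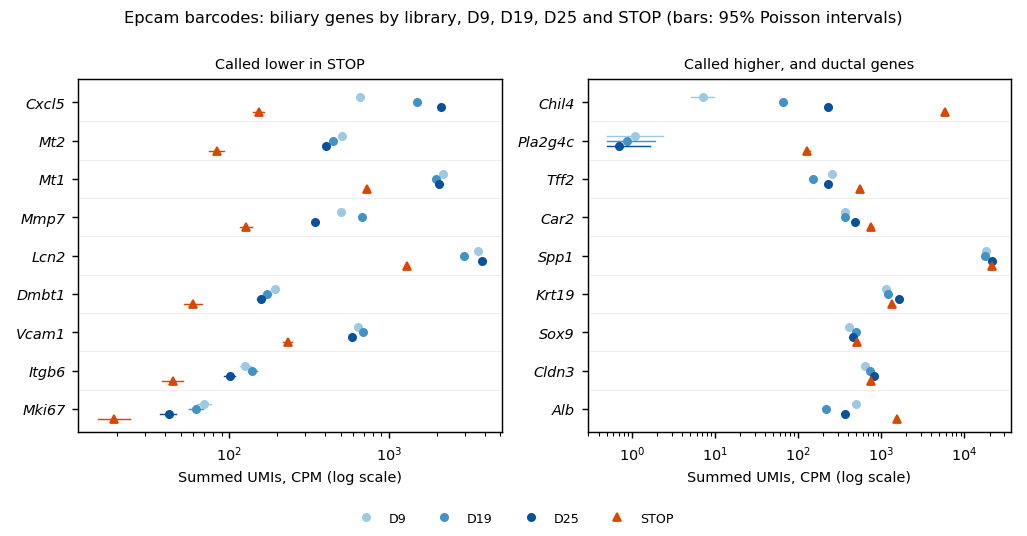
Summed levels in Epcam barcodes (CPM, log axis) of 9 genes called lower at STOP (left) and of 9 genes called higher or marking ducts (right), 1 symbol per library with its exact 95% Poisson interval and levels under 0.5 CPM drawn at 0.5. STOP (orange triangles) lies left of the DDC circles for all 9 genes on the left, far right for Chil4 and Pla2g4c, and among the DDC circles for Krt19 and Cldn3.

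Transcripts of other cell types moved with the BEC calls. Summed hepatocyte markers in BECs were 4609 CPM at STOP and 1773 to 2241 on DDC, summed LSEC markers 1000.3 and 121 to 238, and 5 of 7 LSEC markers were called higher there. Alb, albumin, was seen in 31.6, 19.96 and 26.02% of thinned BECs on DDC and 58.7% at STOP (53.5 to 63.8), while in thinned T cells it was 1.23 to 2.13% and 7.88%. Without thinning it was seen in 50.3 to 63.9% and 77.3% of BECs. Of Ighg2b, an immunoglobulin gene with the largest ratio in BECs, 2481 UMIs came from 1 barcode and 1 from another. The part of other cells in the BEC result was not tested. Cxcl5, Mt1, Mt2, Lcn2 and Vcam1 were called lower also without the deepest 5% of a library and barcodes with at least 2 Cd79a, 5 S100a8 or 20 Alb UMIs. Barcodes with fewer Alb UMIs stayed in, and no LSEC gene was used to leave any out.

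LSECs had the smallest share of genes called higher, 0.616%, but not of genes called lower, 0.355% against 0.26% in T cells and 0.352% in cDC1s. Sinusoidal identity genes gave no call in 12 compared, and 7 stood above all 3 DDC libraries, as did 36.3% of all genes compared in LSECs. Dnase1l3, the DNase that LSECs secrete, was at 3390.4, 4424 and 5712 CPM on DDC, 8668 at STOP and 13436 at D0, so that STOP stood between the DDC libraries and D0. Gpr182, a scavenging chemokine receptor, was at 592, 869 and 720.5 CPM on DDC, 1362 at STOP and 661 at D0. Pericentral (7 compared), periportal (7), capillarization (6) and adhesion genes (9) gave no call either. Wnt2, the pericentral Wnt ligand that keeps hepatocyte zonation, was at 170.1, 117 and 146 CPM on DDC, 228 at STOP and 471 at D0. It was seen in 20.4, 16.5 and 16.4% of thinned LSECs on DDC, 24.5% at STOP (21.2 to 28.1) and 56.99% at D0. The selectin gene Selp, which tethers leukocytes, was below the DDC range at 75.8 CPM (82.7 to 314), and Vcam1 inside it at 271 (151 to 551).

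A pair of lower calls in LSECs were secreted signalling genes. Lrg1, a glycoprotein that alters endothelial TGF-beta signalling, was at 287, 288 and 342 CPM on DDC, 139.6 at STOP and 16.5 at D0. Inhbb, the activin B subunit, was at 133, 128 and 251 CPM on DDC, 63.7 at STOP and 11.5 at D0. Both moved towards D0. Both are outside the gene lists and were picked after their values were seen. By the rule, the lower genes with the largest ratios were Siglech, Cirbp, Mpeg1, Lars2 and Neat1. Siglech marks plasmacytoid dendritic cells and Mpeg1 macrophages, and Siglech was at 181, 69.2 and 30.6 CPM on DDC and 7.30 at STOP. The calls of Siglech, Mpeg1 and Neat1 were lost when barcodes meeting 2 rules were kept and, with that of Lars2, when the rule was set on thinned barcodes. The ratio of Mpeg1 turned under both, and Siglech lost its call with thinned sums too. Of the UMIs of Siglech at STOP, 81.2% were in 1 barcode, without which it was at 1.37 CPM, and at D25 40.00% were in 1 barcode. Fabp5, a fatty acid binding protein, was among the higher calls in LSECs, at 475 CPM against 62.1 to 108, a call lost when barcodes meeting 2 rules were kept. All 6 MHC class II genes compared stood below the DDC range in LSECs, without a call, with a median log2 ratio of -0.66, where 13.01% of all genes stood below. Cd74 was at 4043, 2452 and 3875 CPM on DDC and 2199.8 at STOP. BECs showed the same order for 6 of 6, with Cd74 at 2779 CPM against 2939 to 5352, whereas in cDC1s, which use these genes, Cd74 was inside the DDC range at 24489 (22090.2 to 28087). Markers of antigen-presenting cells moved in LSECs too. Summed cDC1 markers there were 195 CPM at STOP and 266 to 298 on DDC, B cell markers 36.3 and 42.8 to 67.6, and plasmacytoid dendritic cell markers 7.76 and 75.5 to 265, with 2 of 4 called lower. Macrophage markers were above the DDC range, at 239 CPM against 149 to 205, and type 2 dendritic cell markers inside it, at 243 against 144 to 271. In BECs summed type 2 dendritic cell markers were 129.95 CPM at STOP and 131 to 252 on DDC, with 2 of 4 called lower. Their part in the result was not tested.

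In cDC1s no identity gene was called, and 1 of 5 maturation and 1 of 7 chemokine and cytokine genes were called higher. Of all genes compared in cDC1s, 1.92% were called higher. The list medians were 0.21 for maturation and 0.62 for chemokines and cytokines on the log2 scale, against -0.02 over all genes compared. There were 9 identity genes compared, and Clec9a, the receptor for dead cells, was at 233, 332 and 232 CPM on DDC and 363 at STOP. Il12b, a subunit of interleukin 12, was the only call among 5 maturation genes, at 28.4, 9.81 and 70.5 CPM on DDC, 226 at STOP (217 to 236) and 124 at D0. It was carried by 126 of 857 cDC1s and its call held under the 7 alternatives able to remove it. The maturation genes Ccr7 (87.9 CPM, DDC 8.08 to 77.04) and Cd83 (702, DDC 467 to 883) were not called. The T cell chemokine Cxcl9 was at 79.00, 94.1 and 101 CPM on DDC, 171 at STOP and 432 at D0, above the DDC range without a call. Ccl5 was called at 362 CPM against 84.3 to 151, a call lost when estimated free RNA was subtracted and with thinned sums. In barcodes with 10 to 100 UMIs Ccl5 stood at 3095, 5494 and 6354 CPM on DDC and 6762 at STOP. Hmox1 was at 8.29, 9.81 and 12.8 CPM on DDC and 74.4 at STOP, but 30.3% of its UMIs were in 1 barcode and its call was lost under 3 alternatives. The lower calls were led by Cirbp, Rbm3 and 2 histone genes, H4c4 (31.8 CPM, DDC 86.5 to 168) and H1f4 (38.96, DDC 99.9 to 131), whose calls were lost when barcodes meeting 2 rules were kept. Cell cycle genes gave no call in 8 compared, with Mki67 at 52.2 CPM against 32.9 to 107.

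Type I interferon-stimulated genes were set against the shares of all genes compared that stood above the 3 DDC libraries, 41.7% in macrophages, 36.3% in LSECs, 42.9% in T cells, 32.4% in BECs and 22.3% in cDC1s. In the same order, 2.47%, 0.616%, 1.5%, 1.7% and 1.92% of all genes compared were called higher. All 11 type I genes compared in macrophages stood above the 3 DDC libraries and 5 were called, with a median log2 ratio of 1.36. In LSECs 11 of 13 stood above and 4 were called, with a median of 1.02. In T cells all 5 stood above and none was called, in BECs 3 of 4 with 1 call, and in cDC1s 4 of 6 with none. Irf7, the transcription factor that amplifies the response, was at 70.2, 40.6 and 72.1 CPM on DDC, 237 at STOP (219 to 257) and 209.6 at D0 in macrophages. Ifitm3, which blocks viral entry, was at 731, 615 and 849 CPM on DDC, 2372 at STOP and 1291 at D0. For both genes the 3 DDC libraries were the lowest and D0 stood between them and STOP. Rsad2, viperin, was called at 91.03 CPM against 33.1 to 36.98, and Xaf1 at 74.5 against 22.7 to 34.2, the latter lost under 5 alternatives. The calls of Rsad2 and Ifitm3 were lost when barcodes meeting 2 rules were kept, and that of Irf7 under none of the 8 alternatives able to remove it. Ifi27l2a completed the type I calls, at 2113 CPM in macrophages against 313 to 634, and was the 1 call of the list in BECs, at 170.0 against 42.2 to 79.01, where 6 alternatives lost it. In LSECs Ifit1 was at 14.7, 11.3 and 57.6 CPM on DDC, 118 at STOP and 32.97 at D0, and Ifit3 at 24.6, 13.2 and 59.7, 133 and 97.3. Ifi44 was at 37.4, 26.4 and 31.6 CPM on DDC and 109 at STOP and its call held under the 8 alternatives able to remove it, while Ifit1, Ifit2 and Ifit3 were lost when barcodes meeting 2 rules were kept and with the rule set on thinned barcodes, Ifit1 also with TMM scaling. In macrophages Irf7 was above the DDC range in barcodes with Clec4f (461 CPM, 78.04 to 213) and without it (145, 32.7 to 66.8). Of the interferon gamma targets, 2 of 8 were called in macrophages, 1 of 8 in T cells, 1 of 5 in cDC1s and none in LSECs and BECs. These counts are read against the same shares of all genes called higher. The guanylate-binding protein gene Gbp3 was called in macrophages, at 66.8 CPM against 20.3 to 24.9, a call lost under 2 alternatives. Iigp1, an immunity-related GTPase, was the one called in 3 lineages, at 99.9 CPM in macrophages (16.6 to 45.4 on DDC), 66.04 in T cells (14.2 to 23.03) and 55.5 in cDC1s (1.75 to 17.3). Its call was lost under 2 alternatives in T cells, 3 in macrophages, TMM scaling among them, and 2 in cDC1s. In barcodes of STOP with 10 to 100 UMIs Iigp1 was above its level in each of these lineages and at least 2-fold above the DDC libraries. In LSECs of STOP it was at 1617 CPM without a call, and the part of LSEC transcripts in these calls was not tested.

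The promoters of these genes were searched for the core of the interferon-stimulated response element, GAAANNGAAA, on both strands. The window ran from 250 bases before to 50 after the gene start in RefSeq, build GRCm38.p6. The core was found in 1131 of 32851 promoters (3.44%) and, counted per gene, in 3.99% of 27025 genes. It was found in 7 of the 13 type I genes and in 7 of the 11 interferon gamma targets with a promoter entry. The type I genes with it were Bst2, Ifit1, Ifit3, Ifitm3, Isg15, Rsad2 and Stat2, and Bst2, Isg15 and Stat2 were not called. The called genes Irf7, Xaf1, Ifi27l2a, Ifit2 and Ifi44 gave no match, though some may lack a promoter entry. Sites of 4 called genes are shown on the strand of the gene, with the core in capitals, at chr12:26456555-26456580, chr19:34640777-34640802, chr19:34583365-34583390 and chr7:141010708-141010733.
Rsad2: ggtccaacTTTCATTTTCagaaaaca
Ifit1: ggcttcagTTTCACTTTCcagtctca
Ifit3: gtggtaagTTTCACTTTCctcttctg
Ifitm3: acttctgaGAAACCGAAActgccgca
The first 3 carry it on the opposite strand, before the gene start, and Ifitm3 on the strand of the gene, after its start. Ifit1, Ifit3 and Ifitm3 each held 2 such matches, of which 1 is shown. A match describes these letters and is no measure of binding.

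Genes of hepatocytes appeared in every lineage at STOP. Fabp1, the liver fatty acid binding protein, and Apoa2, an apolipoprotein, were called higher in all 5 lineages, Apoc1 in 4 and Alb in 3. Fabp1 in T cells was at 1.19, 0.67 and 29.5 CPM on DDC, 7.54 at D0 and 843 at STOP, where 44.6% of T cells carried it. It was at 359 CPM in macrophages, 373 in LSECs, 387 in BECs and 297 in cDC1s of STOP, against at most 22.9, 8.67, 12.7 and 9.12 on DDC. Hepatocytes are the main source of these transcripts in liver. Summed hepatocyte markers in T cells were 1027 CPM at STOP and 48.4 to 177 on DDC, and 23.3% of the Fabp1 UMIs of T cells at STOP were in 1 barcode. In macrophages 47.7% and in BECs 42.3% were, and without that barcode Fabp1 stood at 188 and 223 CPM. Barcodes with 10 to 100 UMIs, taken here to hold free RNA and debris, had Fabp1 at 9543 CPM at STOP, 6.21 to 212 on DDC and 161 at D0. Apoa2 was at 4089 CPM there at STOP and 57.2 to 299.9 on DDC. In T cells, 26 of the 52 genes called higher stood higher in these small barcodes than in T cells and at least 2-fold higher there than on DDC. The same held for 7 of 81 in macrophages, 5 of 26 in LSECs, 19 of 70 in BECs and 8 of 60 in cDC1s. The share of all genes compared that met both conditions was not computed, so these counts do not measure an excess among called genes. When free RNA was subtracted as estimated from these barcodes, Apoa2 lost its call in macrophages, LSECs, BECs and cDC1s and kept it in T cells, and Fabp1 kept it in 4 lineages and turned in BECs.

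Collagen genes behaved in part alike. Col1a1, Col1a2 and Col3a1, made by stellate cells and fibroblasts, were called higher in macrophages, LSECs and cDC1s. Col3a1 in cDC1s was at 0, 3.46 and 11.5 CPM on DDC and 269.9 at STOP. Without thinning it was carried by 14.7% of cDC1s at D25 and 11.3% at STOP, Col1a1 by 11.1% and 6.07% and Col1a2 by 6.89% and 5.72%. Of the STOP UMIs of Col3a1, Col1a1 and Col1a2 in cDC1s, 16.8%, 28.4% and 29.1% were in 1 barcode. Without that barcode they were at 225, 94.7 and 92.0 CPM. Summed stellate or fibroblast markers in cDC1s were 747 CPM at STOP and 2.62 to 46.9 on DDC, but in T cells D25 at 1064 was as high as STOP at 1002. In the small barcodes Col3a1 was at 409 CPM at STOP and 973 at D25. LSEC markers in cDC1s were 1659 CPM at STOP, 330.4 to 522 on DDC and 1390.4 at D0. The part of these cells in the results was not tested. The cDC1 calls of Col1a1 and Col1a2 were lost when barcodes with other-type transcripts and the deepest barcodes were left out, and that of Col3a1 was kept.

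**Figure D5:**
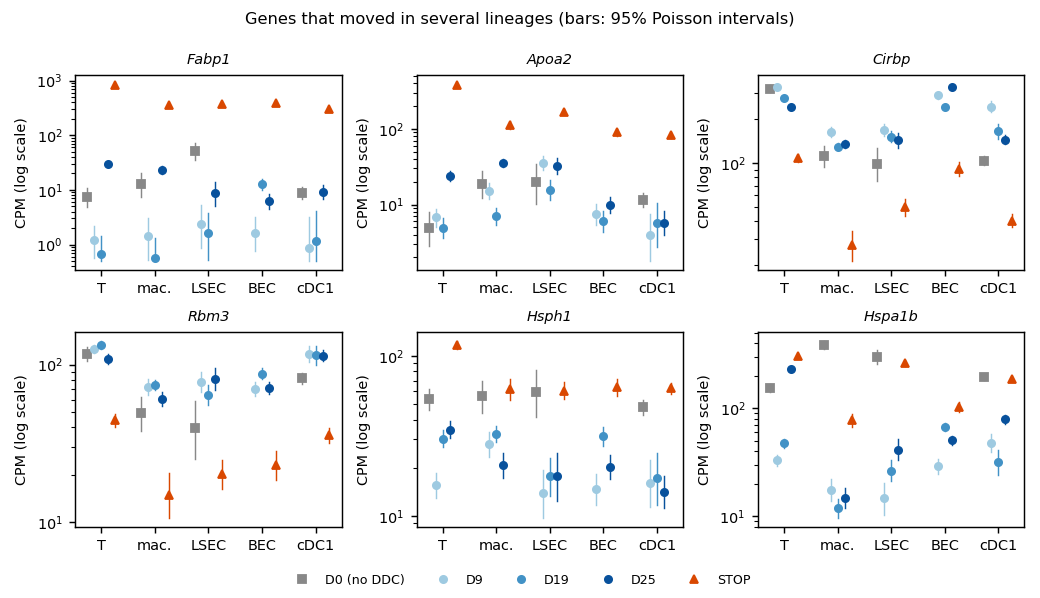
Summed levels (CPM, log axis) of 6 genes in the 5 lineages, 1 symbol per library with its exact 95% Poisson interval, levels under 0.5 CPM drawn at 0.5 and D0 left out for BECs. STOP (orange triangles) is above the DDC circles for Fabp1, Apoa2 and Hsph1 and below them for Cirbp and Rbm3 in every lineage, and Hspa1b is above them with D0 (grey squares) as high or higher in macrophages, LSECs and cDC1s.

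A pair of cold-inducible genes fell in all 5 lineages. Cirbp and Rbm3 encode RNA-binding proteins that cells make when cooled and were the only genes called lower in every lineage. Cirbp was at 333, 277 and 242 CPM on DDC and 108 at STOP in T cells, 163, 129 and 135 and 27.3 in macrophages and 168, 151 and 143 and 49.97 in LSECs. In BECs it was at 289.8, 241 and 329 and 90.9, and in cDC1s at 243, 165 and 144 and 40.2. D0 lay with DDC or between DDC and STOP, at 322 CPM in T cells and 104 in cDC1s. Rbm3 followed, from 109 to 133 CPM on DDC to 44.3 at STOP in T cells and from 114 to 117 to 35.7 in cDC1s. The calls of Cirbp held under every alternative in all 5 lineages, whereas that of Rbm3 was lost in LSECs with the rule set on thinned barcodes and in BECs with thinned sums. The small barcodes moved alike, with Cirbp at 69.6 CPM at STOP and 199 to 247 on DDC.

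Some heat shock genes were called higher. Of the immediate early and heat shock list, 2 of 18 genes were called higher in T cells and 3 of 17 in macrophages. The counts were 3 of 18 in LSECs, 1 of 18 in BECs and 4 of 18 in cDC1s. In the same order, 1.5%, 2.47%, 0.616%, 1.7% and 1.92% of all genes compared were called higher. The list medians were 0.17, 0.09, 0.13, 0.07 and 0.56 on the log2 scale, against 0.10, 0.08, 0.12, 0.05 and -0.02 over all genes. Hsph1, a co-chaperone of Hsp70, was called higher in 4 lineages and stood above the DDC range in macrophages, at 61.8 CPM (20.7 to 32.4). Its call held in T cells, was lost with thinned sums in LSECs and cDC1s, and in BECs was lost under 4 alternatives, TMM and median-of-ratios scaling among them. In T cells it was at 15.6, 30.4 and 34.6 CPM on DDC, 117 at STOP and 53.6 at D0. In LSECs Hspa1a, an inducible Hsp70, was at 20.7, 14.5 and 34.7 CPM on DDC, 185 at STOP and 287 at D0, and its near-identical copy Hspa1b at 14.7, 26.4 and 41.3, 259.7 and 298. Reads of the 2 copies may be divided between them. Hspa1b was called also in macrophages, at 76.8 CPM, and in cDC1s, at 185, and its macrophage call was lost with thinned sums. Hspa1a was called in macrophages, at 86.4 CPM, a call lost under 3 alternatives, TMM scaling among them. Of the immediate early genes, Fos, Jun and Junb were not called in any lineage, while Egr1 was called higher in macrophages, at 305 CPM (87.9 to 144 on DDC, 251 at D0), and Ier3 in T cells and cDC1s. The calls of Egr1 and of Ier3 in T cells were lost under 3 alternatives, TMM scaling among them, and that of Ier3 in cDC1s under 2. The co-chaperone gene Dnajb1 was called in cDC1s alone, at 91.7 CPM (33.6 to 43.9), a call lost under 4 alternatives. Whether these genes moved with the animals, the diet or the handling of the STOP sample cannot be told apart with 1 library. The heat shock element, GAANNTTCNNGAA on either strand, was found in 198 of 32851 promoters (0.603%) and in 1 of 14 genes of the heat shock and immediate early list with an entry, Hsph1, at chr5:149636280-149636308 on the opposite strand, shown with the element in capitals.
Hsph1: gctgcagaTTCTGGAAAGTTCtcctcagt

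Lars2, a mitochondrial tRNA ligase gene, was called lower in 3 lineages. Lars2 in T cells was at 587, 644 and 136 CPM on DDC and 58.9 at STOP. Lars2 in macrophages was at 420.0, 433 and 153 CPM on DDC and 72.97 at STOP, and in LSECs at 1527, 1758 and 439 and 188. The call held in T cells and was lost with thinned sums in macrophages and with the rule set on thinned barcodes in LSECs.

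Genes that DDC had changed were followed separately. They were chosen as at least 2-fold above, or below, D0 at both D9 and D25, with intervals that did not overlap, and read at STOP against D19, which had no part in the choice. Of DDC-raised genes, in T cells 10 of 451 were at least 2-fold lower at STOP than at D19 (2.22%, background over all genes compared 0.978%), in macrophages 33 of 345 (9.57%, background 1.9%), in LSECs 15 of 171 (8.77%, background 1.16%) and in cDC1s 12 of 321 (3.74%, background 1.96%). Others of the DDC-raised genes were at least 2-fold higher at STOP than at D19, 12 in T cells, 20 in macrophages, 10 in LSECs and 7 in cDC1s, where 4.22%, 5.42%, 3.99% and 4.35% of all genes compared were. The median log2 ratio of STOP to D19 over DDC-raised genes was -0.23 in T cells, -0.23 in macrophages, -0.16 in LSECs and -0.33 in cDC1s, against 0.09, 0.08, 0.14 and -0.04 over all genes compared. The macrophage share was 16.2% with TMM and 18% with median-of-ratios scaling, and the T cell and LSEC shares were 4.44% and 15.8% with barcodes meeting 2 rules kept. Of DDC-lowered genes, in T cells 37 of 141 were at least 2-fold higher at STOP (26.2%, background 4.22%), in macrophages 47 of 142 (33.1%, background 5.42%), in LSECs 37 of 125 (29.6%, background 3.99%) and in cDC1s 31 of 70 (44.3%, background 4.35%). The T cell share was 17.1% with TMM and 16.5% with median-of-ratios scaling, the macrophage share 21.6% with thinned sums, and the cDC1 share 26.7% with no CPM filter and 25.4% with thinned sums. A further 4 DDC-lowered genes in T cells, 3 in macrophages, 1 in LSECs and 4 in cDC1s were at least 2-fold lower at STOP than at D19. BECs were left out for want of a D0 reference.

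Of the 14 lipid-associated genes, 13 were DDC-raised in macrophages and 5 of these came back, namely Gpnmb, Trem2, Cd63, Ctsd and Atp6v0d2. Gpnmb was at 19.6 CPM at D0, 733, 1718 and 1215 on DDC and 298 at STOP. The fatty acid transporter Cd36 was at 70.9 CPM at D0, 411, 589.6 and 484 on DDC and 272 at STOP, and the lipid chaperone Fabp4 at 12.8, 159, 435 and 388 and 197. In LSECs Ccn2, a matricellular growth factor, was at 9.89 CPM at D0, 235, 326 and 65.8 on DDC and 34.9 at STOP, and Selp at 21.4, 82.7, 241 and 314 and 75.8. In T cells Tfrc, the transferrin receptor, was at 8.41 CPM at D0, 54.9, 62.9 and 35.96 on DDC and 27.1 at STOP. Cd36, Fabp4, Ccn2 and Tfrc were picked after their values were seen.

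Of 341 genes that DDC lowered in any of the 4 lineages, 38 were lowered in 3 or 4 of them, and of the 114 that came back anywhere, 10 did so in 3 or 4 lineages. These 10 were Dctn3, Dnase1l3, Gstp1, H2-T23, Hspa1a, Hspa1b, Isg15, Ost4, Pcbd2 and Psmb8. Psmb8, an immunoproteasome subunit, was at 716 CPM at D0, 229, 106 and 63.8 on DDC and 286 at STOP in T cells and at 492, 163, 60.8 and 41.4 and 149.8 in macrophages. Ost4, a subunit of the oligosaccharyltransferase, was at 350.0, 85.7, 34.7 and 30.4 and 100.2 in T cells and at 309.9, 117, 41.5 and 32.6 and 115 in macrophages. Their levels moved together across libraries in unlike cells, with D9 above D19 and D25 for both genes, and whether this was a property of the libraries was not tested. Among genes lowered in 1 lineage alone, 15 of 75 came back in T cells, 21 of 84 in macrophages, 18 of 74 in LSECs and 17 of 22 in cDC1s. In cDC1s the DDC-lowered gene Dnase1l3 went from 1288 CPM at D0 and 139.7, 196 and 240.1 on DDC to 1194 at STOP, along with the LSEC markers given above, and the surface gene Ly6a from 182 and 24.01, 13.3 and 24.6 to 104.

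The other gene lists gave few calls. NF-kB feedback and target genes gave no call in T cells, macrophages, LSECs or BECs, with 9, 8, 9 and 10 compared, and 1 in cDC1s, Tnfaip2, a call lost under 3 alternatives. Nfkbiz, an inducible inhibitor of NF-kB, was below the DDC range in T cells, at 162 CPM against 236 to 332. NRF2 targets, the genes of oxidative defence, gave no call outside Hmox1 in cDC1s. Lysosome genes gave no call in any lineage, with 6 of 14 below the DDC range in macrophages and a median log2 ratio of -0.30. The cathepsin gene Ctsb was at 4456, 5846 and 5719 CPM on DDC and 4079 at STOP there. Glycolysis and hypoxia genes gave no call, with Pgk1 in macrophages at 317 CPM against 113 to 177. Glucocorticoid and circadian genes gave no call either, and Fkbp5, a glucocorticoid target, was at 104, 63.6 and 17.4 CPM on DDC and 23.4 at STOP in macrophages.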

How the data were processed

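Single-cell libraries of protocol B were analysed, with 1 library each for D0, D9, D19, D25 and STOP. The values are UMI counts as the authors deposited them, without normalization. The submitters' processing notes name kallisto and GRCm38, with versions not given in the sources used here. Empty barcodes were still present, and no doublet caller was run. Lineages were set by the UMI rules given above, in barcodes with at least 1500 UMIs, and barcodes meeting exactly 1 rule were summed per library. Rule genes, mitochondrial, ribosomal and predicted genes were left out. CPM is per 1000000 summed UMIs, and a count under 3 was set to 3 for ratios. Intervals are exact Poisson and exact (Clopper-Pearson) binomial, at 95%, and cover counting error only. Cells are not replicates, so no test was made. Named genes are the 5 called genes per lineage and direction with the largest ratio to the nearest DDC library among genes at 100 CPM or more, the called members of the lists, and up to 4 most abundant members of a list, with others named where their role helps. The members and gene lists were chosen with earlier results of these data known. Of the list symbols, 3 had no entry in the files. Alternatives included edgeR 4.0.16 TMM factors and median-of-ratios factors. Software was Python 3.11.15, numpy 2.4.6, scipy 1.17.1 and R 4.3.3. The call rule was run on simulated Poisson counts drawn from 1 T cell profile, without spread between libraries. That run checks the code and does not measure false calls from such spread.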

Additional observations from a re-analysis of the deposited data

Results flagged for a closer look

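A total of 3 genes were called in opposite directions in 2 lineages, and the difference between lineages was not tested. Mki67 was higher in T cells, with a log2 ratio of STOP to the nearest DDC library of 1.28, and lower in BECs, with -1.13. Il12b was higher in cDC1s, at 1.68, and lower in LSECs, at -3.92, where it was at 53.6, 13.8 and 18.9 CPM on DDC and 0.913 at STOP. Nupr1, a stress-induced nuclear protein gene, was higher in macrophages, at 2.02, with 13.4, 15.1 and 19.9 CPM on DDC and 80.7 at STOP, and lower in BECs, at -1.03, with 141, 255 and 266 and 68.7.

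Barcodes with 10 to 100 UMIs, which belong to no lineage, held hepatocyte transcripts above D0. Fabp1 was at 9543 CPM in those of STOP and 161 at D0, Apoc1 at 4973 and 94.4, and Apoa2 at 4089 and 122.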

How the results depend on the processing

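Of 18 counts and shares, all 18 stayed close to the reported value (counts within 1.5 times, shares within their interval) when estimated free RNA was subtracted (an alternative added after seeing the data) and when barcodes with other-type transcripts were left out, in 16 with at least 3000 UMIs and in 12 of 14 with the rule set on thinned barcodes, under which the cDC1 counts could not be given because too few barcodes were left. TMM scaling gave 32 genes higher in T cells and 50 higher and 30 lower in macrophages, and median-of-ratios scaling 34, 52 and 29. With no filter on CPM the higher and lower counts were 561 and 42 in T cells, 282 and 46 in macrophages, 105 and 32 in LSECs, 359 and 95 in BECs and 385 and 38 in cDC1s. Keeping barcodes that met 2 rules in both lineages gave 111 and 15 in T cells, 123 and 29 in macrophages, 125 and 43 in BECs and 32 lower in LSECs. The rule on thinned barcodes gave 33 and 15 in T cells. Summing barcodes thinned to 1500 UMIs (added after seeing the data) gave 29 higher in T cells, 49 in macrophages and 36 in cDC1s, and 8 lower in LSECs and 7 in cDC1s. The cause was not tested. A like count did not mean like genes. With the rule on thinned barcodes, 19 of the 52 higher calls in T cells, 9 of 26 in LSECs and 3 of 15 lower calls in LSECs were kept. With barcodes of 2 rules kept, 22 of 52 higher calls were kept in T cells, 28 of 81 in macrophages, 8 of 26 in LSECs, 42 of 70 in BECs and 34 of 60 in cDC1s.

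Without D9, D19 or D25 in turn, higher counts ranged from 67 to 100 in T cells, 103 to 117 in macrophages, 41 to 78 in LSECs, 84 to 106 in BECs and 80 to 82 in cDC1s, and lower counts from 10 to 19, 19 to 33, 19 to 26, 33 to 47 and 13 to 27. Fewer libraries to exceed gives more calls by construction. Without D25, 100 genes were higher and 19 lower in T cells, 78 and 26 in LSECs, 106 and 47 in BECs, and 33 and 27 lower in macrophages and cDC1s. Without D9, 46 were higher in LSECs and 19 lower in cDC1s, and without D19, 41 were higher in LSECs.

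The share of DDC-lowered genes that came back was 36.5% in T cells and 21% in LSECs with at least 3000 UMIs, 17.1% and 20.9% with TMM, 16.5% and 20.3% with median-of-ratios, which gave 25.2% in macrophages. It was 34.7% in T cells and 46.5% in macrophages with barcodes of 2 rules kept, 18.1%, 21.6% and 25.4% in T cells, macrophages and cDC1s with thinned sums, and 26.7% in cDC1s with no filter. The share of DDC-raised genes that came back was 16.2%, 18% and 14% in macrophages with TMM, median-of-ratios and thinned sums, and 4.44% in T cells and 15.8% in LSECs with barcodes of 2 rules kept.

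Of named genes, Mpeg1 in LSECs turned to log2 ratios of 0.36 with barcodes of 2 rules kept and 1.04 with the rule on thinned barcodes, and Fabp1 in BECs to -2.59 with free RNA subtracted. Tff2 in BECs turned to -0.10 and Hmox1 in cDC1s to -0.39 with barcodes of 2 rules kept, and Cenpf in BECs to 0.08 with the rule on thinned barcodes. No paired analysis was possible because the result comes from no test and STOP is 1 library. The depth limits the low genes, since 3 UMIs stand for 1.15 CPM in macrophages of STOP and 0.308 in T cells.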

Other observations

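Hspa5, a chaperone of the endoplasmic reticulum, in macrophages was at 474, 663 and 644 CPM on DDC, 1349.7 at STOP and 904 at D0. Pdia4, a disulfide isomerase, was at 72.3, 68.4 and 58.1 CPM on DDC and 150.2 at STOP, and Creld2 at 20.02, 21.1 and 22.6 and 66.8. Klf2, a transcription factor of quiescent macrophages, was at 271, 238 and 195 CPM on DDC, 589.9 at STOP and 899 at D0. Ccl24, an eosinophil-attracting chemokine, was at 142, 102 and 110.4 CPM on DDC and 588 at STOP. These 5 genes were called higher and were picked after their values were seen.

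In BECs, the integrin gene Itga2 and the plasminogen activator gene Plat were called lower, Itga2 at 32.9 CPM against 81.1 to 138 and Plat at 20.4 against 90.2 to 132. Cd44, a hyaluronan receptor of reactive ducts, was at 350.0, 435 and 399.6 CPM on DDC and 163 at STOP. Olfm4, a secreted glycoprotein of crypt cells, was called higher at 67.4 CPM against 7.05 to 27.6.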
